A study of Mus musculus with 768 samples.

Results

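Granzyme C transcripts were present in 200 of 726 NK cells sorted one by one from MTAP1A tumors, and these 200 cells are described here. RPKM divides the reads of a gene by its length and by the depth of the library of that cell. A well was kept when it had 1000 to 3500 detected genes, that is, genes above 0 RPKM among those above 0 in at least 3 of all 768 wells. The cells were then chosen by their Gzmc value, which had to be above 0 RPKM, and Gzmc values are therefore given as a description. The study compared NK cells of C57BL/6 WT mice with those of PD-1-/- mice. In the latter, a part of the gene of the checkpoint receptor PD-1 is deleted in every host cell and not in the implanted tumor. Tumors of 3 mice of a genotype were pooled, viable NK1.1+ cells were sorted by a gate that left out, among others, cells with surface CD3 or GR1, and each pool filled 1 plate. The age of the mice is not given by the labels. MTAP1A tumors grow from a fibrosarcoma line made from a Tap1-deficient mouse, with little MHC class I on the cell surface. SMART-SEQ2, which reads full-length transcripts without molecular identifiers, was run on every well, and no treatment divided the groups. Genotype and plate cannot be told apart, cells of a pool are not replicates, and every comparison below was therefore made between cells of the same plate, with no p-value. The 2 plates serve as 2 pools in which a difference could be seen again.

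Granzymes are serine proteases that NK cells and cytotoxic T cells store in granules with perforin, which lets them into a target cell, and with serglycin, the proteoglycan that packs them. Granzyme A and granzyme B are the common granzymes of resting and activated NK cells, and granzyme B starts apoptosis by cutting caspases. Granzyme C belongs to a mouse cluster of genes beside Gzmb, and its transcript is known from strongly activated killer cells, from NK cells given interleukin-2 or interleukin-15, and from tissue-resident innate lymphocytes of glands, uterus and tumors. In the RefSeq annotation of GRCm38.p6 the cluster runs along chromosome 14 in the order Gzme, Gzmd, Gzmg, Gzmn, Gzmf, Gzmc and Gzmb, with Gzmc at bases 56231397 to 56241647 and Gzmb at bases 56258836 to 56262334.

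The 250 bases before the start of both genes are shown because Gzmb was the granzyme that went with Gzmc in these cells. They are taken from RefSeq on GRCm38.p6, in which both symbols were matched, and are written 5′ to 3′ on the minus strand, Gzmc at chr14:56234658-56234907 and Gzmb at chr14:56262335-56262584. The Gzmc window ends at the transcript start that the RefSeq promoter table uses, which lies inside the longer span given above. Capitals mark letters of 3 motifs searched on both strands: RUNX (TGTGGT), AP-1 (TGANTCA) and the cyclic AMP response element, CRE (TGACGTCA).
Gzmc: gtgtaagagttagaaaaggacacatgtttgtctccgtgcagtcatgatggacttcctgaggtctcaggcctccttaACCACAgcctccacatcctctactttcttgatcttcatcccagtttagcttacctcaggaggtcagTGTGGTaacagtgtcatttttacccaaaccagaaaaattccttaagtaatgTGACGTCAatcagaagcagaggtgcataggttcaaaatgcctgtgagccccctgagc
Gzmb: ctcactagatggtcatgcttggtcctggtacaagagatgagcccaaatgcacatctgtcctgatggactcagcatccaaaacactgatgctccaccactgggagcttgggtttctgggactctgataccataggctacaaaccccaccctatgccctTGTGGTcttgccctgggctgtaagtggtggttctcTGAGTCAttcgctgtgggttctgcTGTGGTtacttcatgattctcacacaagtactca
Both windows held the RUNX letters in 2 places, which began at positions -174 and -108 from the start of Gzmc and at -93 and -34 from that of Gzmb. The CRE letters began at position -57 of Gzmc, and the AP-1 letters at position -58 of Gzmb. Of 32851 windows of this length before RefSeq genes, 14.05% held the RUNX letters, 6.75% the AP-1 letters and 1.55% the CRE letters. A match of letters is a description, not a site.

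Gzmc was found in 32.2% (exact binomial 95% interval 27.4–37.3%) of the 360 kept WT cells. On the PD-1-/- plate it was found in 84 cells, 22.95% (18.7–27.6%) of the rest of the 726 kept cells. These intervals, like all intervals on shares here, cover counting error only, since each share comes from 1 pool. The Gzmc level of the cells with Gzmc ran from 2.65 RPKM over a median of 266.4 to 32193.5 RPKM on the WT plate. For PD-1-/- cells the lowest value was 2.03, the median 375.2 and the highest 21749 RPKM. A few cells thus held much of the transcript, as the 5 highest cells of a plate summed to 52.3% of the Gzmc RPKM of the WT plate and 44.9% of that of the PD-1-/- plate.

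Low RPKM values of Gzmc were whole multiples of the value of 1 read, which gave the number of reads behind each of them. The cells fell into separate ranges of read number. A single Gzmc read stood behind the value of 34 WT cells and of 20 among the 84 PD-1-/- cells. In all, 37 WT and 24 PD-1-/- cells had under 10 reads, with at most 4 and 6 reads, while the other 79 and 60 cells had at least 12 and 32 reads, up to 11064 and 9827. Of these, 46 WT and 49 PD-1-/- cells had 100 reads or more. No cell lay between 4 and 12 reads on the WT plate or between 6 and 32 reads on the PD-1-/- plate, so the boundary of 10 reads, set after the values were seen, parts no neighbors. Counting cells from 10 reads, 21.9% of the kept WT cells (17.8–26.6%) and 16.4% of the kept PD-1-/- cells (12.7–20.6%) held Gzmc. Cells with under 10 reads shared a plate row or column with a well of 1000 or more Gzmc reads in 94.6% of WT and 95.8% of PD-1-/- cases, against 79.9% and 88.3% of the cells at 0. The part of such neighbors in the low read numbers was not tested.

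**Figure D1:**
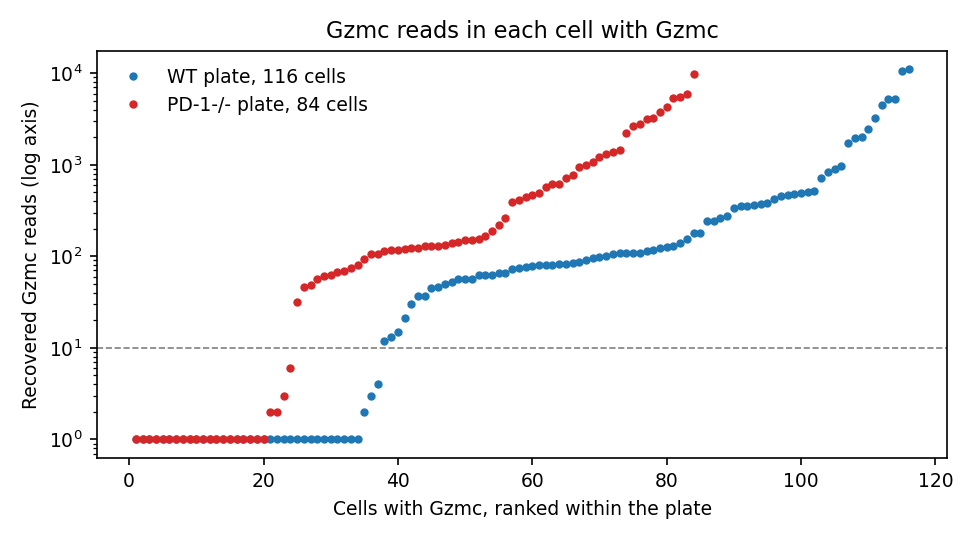
Each point is 1 cell with Gzmc, ranked within its plate along the x axis, with its recovered Gzmc reads on a logarithmic y axis, WT in blue and PD-1-/- in red, and the dashed line marks 10 reads. The 34 WT and 20 PD-1-/- cells with 1 read form the flat start of each curve, and a gap without cells parts the 37 and 24 cells under the line from the 79 and 60 cells above it.

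Cells with Gzmc had more detected genes than cells without, with a median of 2536 against 2188 on the WT plate and 2498.5 against 2154 on the PD-1-/- plate. The gap lay in the cells from 10 reads, with medians of 2741 and 2742 genes, while those under 10 reads had 2271 and 2273. Recovered reads per cell had a median of 287980 in WT and 308611 in PD-1-/- cells with Gzmc, against 277460 and 290019 in cells without. Each cell with Gzmc was therefore paired with a cell of the same plate that had Gzmc at 0 and as near a number of detected genes as could be had, without counting Gzmc. The paired cells had medians of 2464.5 and 2496.5 detected genes. The mean gap within a pair was 26.6 genes on the PD-1-/- plate and 163.6 genes on the WT plate, where the pool of cells without Gzmc ran short of cells with many genes and the widest gap reached 1137 genes. Unless stated otherwise, a difference below is the mean log2(RPKM + 1) of cells with Gzmc minus that of their paired cells, a scale that understates the change of low genes. SDs are over cells and are not replicate errors.

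The sorted cells with Gzmc held transcripts of NK cell markers. At least 2 of 8 NK markers were present in all 200 cells, with a median of 8 and 7 markers per cell. The same held for 100% of the paired cells and of all cells at 0, so this count sets no group apart. Of the 8 markers, 2 were above 0 on both plates, against 30.5% of all genes tested. Below 0 on both plates were 4, Eomes and Gzma among them, against 21.5% of all genes tested. Fcer1g, the signaling chain of several activating receptors, was present in 100% of cells with Gzmc on both plates. Ncr1, the gene of the natural cytotoxicity receptor NKp46, was present in 92.2% of those cells on the WT plate and 96.4% on the PD-1-/- plate. Myeloid and neutrophil markers were rare. At least 2 of 5 myeloid markers stood in 0.862% of the WT cells but in none of 84 on the other plate (a count of 0 allows up to 3.57%), and at least 2 of 3 neutrophil markers in none of the 200 cells. For 10 T cell markers the share with at least 2 was 10.3% in WT and 8.33% in PD-1-/- cells with Gzmc, where the paired cells had 9.48% and 21.4%. Cd3g differed by -0.19 and -1.12 and was present in 12.1% and 10.7% of cells with Gzmc, against 13.8% and 26.2% of paired cells. Cells with CD3 transcripts, which the sort on the surface protein should leave out, were hence no more common among the cells with Gzmc in these counts.

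Genes entered the comparison when at least 10% of the kept cells of each plate had them. Cells with Gzmc and cells at 0 were counted together for this, so a gene could enter by its share in either group alone. Lag3, for example, was in 25.9% of WT cells with Gzmc and in 7.79% of all WT cells at 0. Of 6403 such genes, 16 were higher by at least 1 on the log2 scale on both plates, which is 0.25% of all genes tested, and 6 were lower by at least 1 on both, which is 0.0937%. Xcl1 led the list with differences of 3.05 and 2.47, the WT plate being given first here and below. Beside it stood the granzyme gene Gzmb, the receptor genes Klrb1b, Lag3 and Gp49a, the surface protein genes Ly6a and Ly6c2, the signaling genes Rgs1 and Cish, and S100a4, Litaf, Capg, Rwdd1, Slc25a11, Hnrnpab and Slc35c2. The lower genes included the chemokine gene Ccl5, the adaptor gene Sh2d1a, and Rras2, Pde2a and Txnip. Next below the limit came Ss18 at -0.93 and -1.04, Klra21 at -1.27 and -0.92, S1pr1 at -0.93 and -0.87 and Elmo1 at -0.82 and -0.81. Over 17 alternative settings, Xcl1 stayed past the limit on both plates in 17, Klrb1b in 16, S100a4, Litaf, Ly6a and Ccl5 in 14, Lag3 and Rgs1 in 13 and Sh2d1a in 11. Gzmb and Txnip did so in 9, Cish, Ly6c2 and Rras2 in 8, Rwdd1 in 5 and Hnrnpab in 3. Over all 6403 genes the median difference was 0.09 on the WT plate and -0.01 on the PD-1-/- plate, and 30.5% of genes lay above 0 and 21.5% below 0 on both plates. Across genes, which are not independent replicates, the differences of the plates had a Pearson correlation of 0.106. The limit was passed on the WT plate alone or with the other by 93 higher genes (1.45%) and 39 lower genes (0.609%), and on the PD-1-/- plate by 1.94% (higher) and 1.51% (lower) of them. Without the pairing, against all cells at 0, 56 genes were higher on both plates (0.875%) and 3 lower (0.0469%), while the median difference over all genes moved to 0.23 and 0.19. Near the limit, Hnrnpab at 1.02 and 1.03 and Slc35c2 at 1.002 and 1.25 lay just inside it, and Lgals3bp at 0.998 and 1.07, Lilrb4 at 2.19 and 0.987 and Nipsnap3b at 0.986 and 1.16 just outside.

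**Figure D2:**
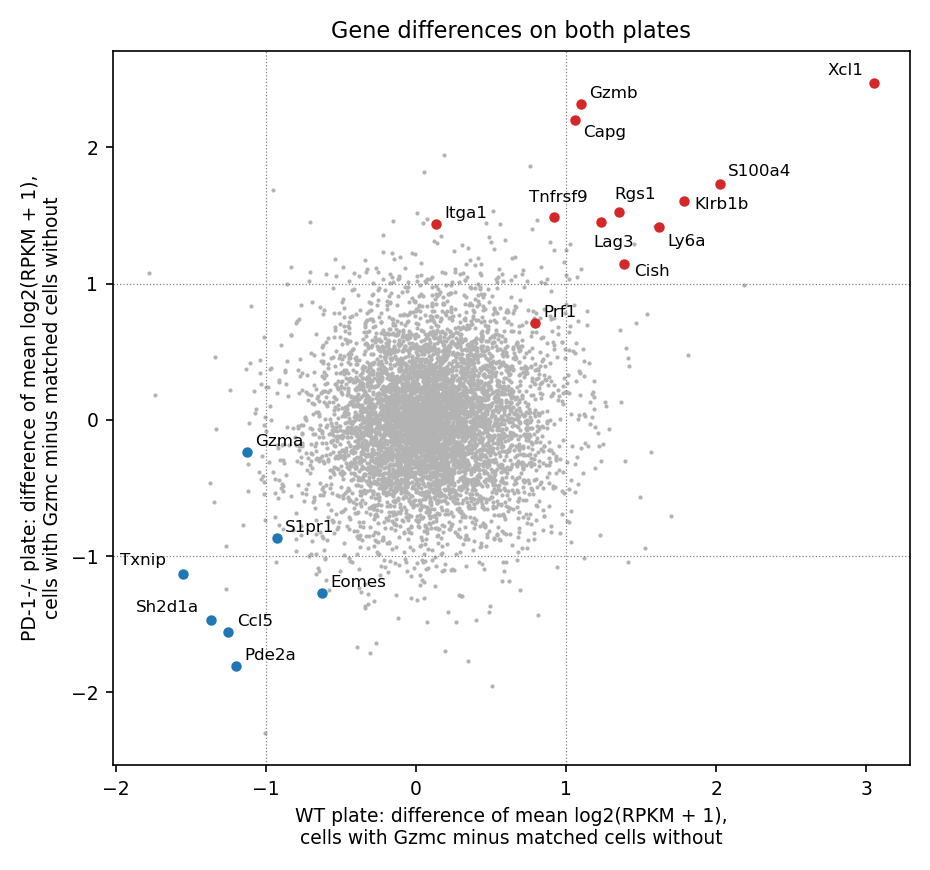
Each gray point is 1 of the 6403 genes tested, with its difference of mean log2(RPKM + 1), cells with Gzmc minus paired cells without, on the WT plate along the x axis and on the PD-1-/- plate along the y axis, and dotted lines mark differences of 1. Genes named in the text are drawn in red where the summed difference is above 0 and in blue where it is below; Xcl1 stands alone at the upper right with 3.05 and 2.47, while Itga1 at 0.13 and 1.44 lies beyond the line on the PD-1-/- plate and within it on the WT plate.

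Xcl1 codes for a chemokine that draws cross-presenting dendritic cells. In WT cells with Gzmc, Xcl1 ran from 0 over a median of 1058 to 35178 RPKM, against 0, 331.1 and 4838 RPKM in the paired cells. The corresponding values on the PD-1-/- plate were 0, 1009 and 27322 RPKM, against 0, 234.01 and 17199. The ranges overlapped on both plates, but more of the cells with Gzmc held the transcript. It was present in 90.5% (83.7–95.2%) of them and in 67.2% (57.9–75.7%) of the paired cells on the WT plate, and in 86.9% (77.8–93.3%) and 65.5% (54.3–75.5%) on the other. Mean log2 levels were 9.30 ± 3.66 (SD over cells) against 6.25 ± 4.62 in WT and 8.56 ± 4.06 (SD over 84 cells) against 6.09 ± 4.90 in PD-1-/- cells.

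Ccl5, the gene of a chemokine for T cells and NK cells that sits preformed in many of them, moved the other way, by -1.25 and -1.56. Its level ran from 0 over 1335.5 to 56746 RPKM in WT cells with Gzmc and from 0 over 2631 to 40287 RPKM in paired cells. PD-1-/- cells with Gzmc had 0, 2424 and 43022 RPKM, and their paired cells 0, 3294 and 33581 RPKM. Cells with Gzmc held the transcript in 88.8% of cases against 91.4% of paired cells in WT and 88.1% against 95.2% in PD-1-/- cells. Of 10 tested genes for death ligands and effector cytokines, Xcl1 was higher and Ccl5 lower past the limit, as were 0.25% and 0.0937% of all genes tested, and 7 were above 0 on both plates, against 30.5% of all genes tested. Ccl4, the gene of the chemokine MIP-1 beta, differed by 0.87 and 0.47, and Ifng, the gene of interferon gamma, by 0.10 and -0.61. The median over the list was 0.29, against 0.04 over all genes tested.

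Gzmb differed by 1.10 and 2.31 and was the one tested gene of the Gzmc locus. WT cells with Gzmc had 0, 1696 and 28715 RPKM of Gzmb as the lowest, median and highest values, and their paired cells 0, 951 and 32522 RPKM. In PD-1-/- cells the values were 0, 3039.8 and 40087 RPKM with Gzmc and 0, 1154 and 16818 RPKM without. Most cells of either kind held Gzmb, 86.2% against 81.9% in WT and 91.7% against 79.8% in PD-1-/- cells. The other granzyme genes of the locus were rare: Gzmd stood in 3.45% and 4.76%, Gzme in 0.862% and 3.57% and Gzmf in 1.72% and 2.38% of cells with Gzmc, while Gzmg and Gzmn were each found in 1 PD-1-/- cell and in no WT cell with Gzmc, which allows a share of up to 2.59%. These genes are close copies of each other, and how reads shared between them were counted is not given in the sources used here. At least 1 of these 5 genes was present in 5.17% (1.92–10.9%) of the WT and 7.14% (2.67–14.9%) of the PD-1-/- cells with Gzmc, against 0.862% and 4.76% of paired cells.

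None of the 16 tested genes for other granule proteins passed the limit. Prf1, the perforin gene, differed by 0.79 and 0.71, and was present in 93.1% and 95.2% of cells with Gzmc. Srgn, the serglycin gene, differed by 0.79 and 0.70. Gzma, by contrast, lay at -1.13 and -0.24, with medians of 4456 RPKM in WT cells with Gzmc and 7406 RPKM in their paired cells, and 6285 against 5881 RPKM on the PD-1-/- plate. The median over this list was 0.21. Genes of granule exocytosis such as Unc13d (0.73 and -0.11) and Stxbp2 (-0.69 and 0.87) did not share a direction between the plates.

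**Figure D3:**
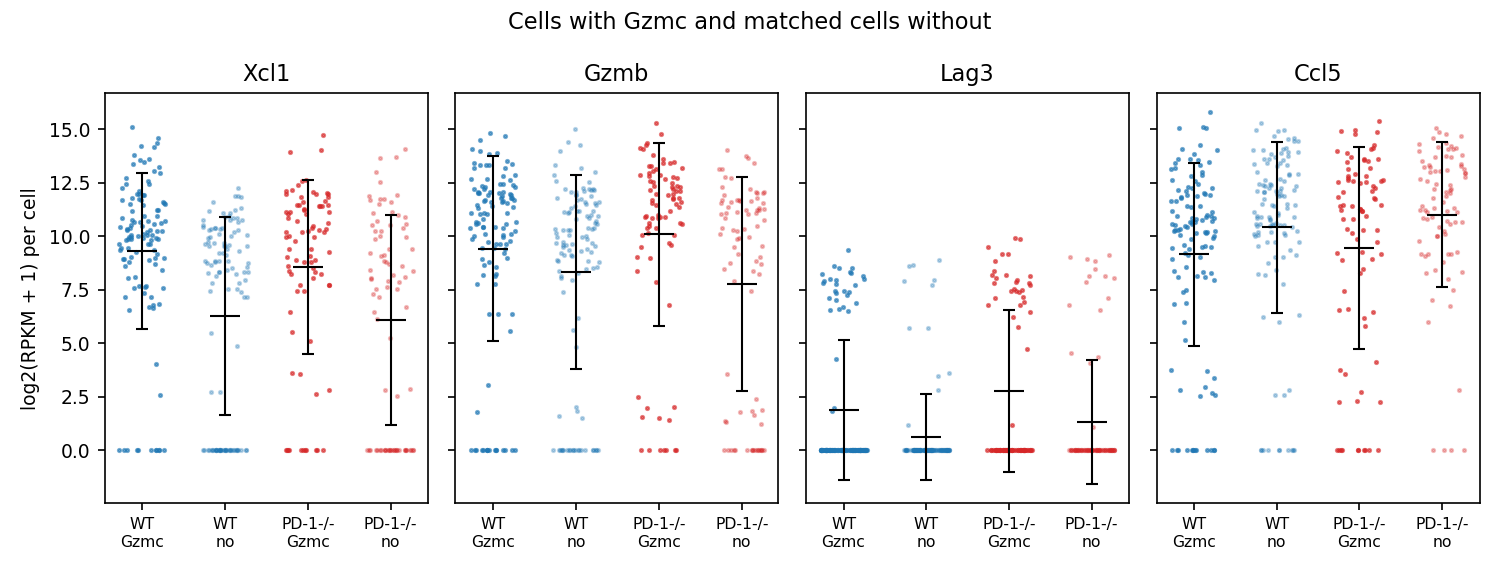
Each point is 1 cell, with log2(RPKM + 1) of Xcl1, Gzmb, Lag3 or Ccl5 on the y axis, for cells with Gzmc and their paired cells without (no) on the WT plate (blue) and the PD-1-/- plate (84 each, red), and black bars show the mean ± SD over cells. Cells with Gzmc have the higher mean for Xcl1, Gzmb and Lag3 and the lower mean for Ccl5 on both plates, and the clouds of cells overlap in every panel.

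Among receptor genes, Klrb1b was the leading one, with differences of 1.79 and 1.61. It codes for NKR-P1B, a receptor that inhibits NK cells when it binds its ligand Clr-b. The transcript was present in 63.8% (54.4–72.5%) of cells with Gzmc and 43.97% (34.8–53.5%) of paired cells on the WT plate, and in 76.2% (65.6–84.8%) and 64.3% (53.1–74.4%) on the PD-1-/- plate. Of 19 tested NK receptor and adaptor genes it was the single one past the limit. Klrb1f of the same family lay at 0.63 and 1.03, Klrc1, the NKG2A gene, at 0.80 and 0.65, Cd226, the gene of the activating receptor DNAM-1, at 0.76 and 1.86, and Ncr1 at 0.09 and 0.52. The 7 tested genes of the Ly49 list, which code for receptors of MHC class I, held none past the limit. Below 0 on both plates were 4 of them (21.5% of all genes tested were) and above 0 none (30.5%), with Klra7 at -0.92 and -0.58. Klra21, named above as next below the limit, is of the same family but was not in this list. These are families of similar genes too.

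Lag3, a coinhibitory receptor gene, ran from 0 over a median of 0 to 644 RPKM in WT cells with Gzmc and to 975 RPKM in PD-1-/- cells with Gzmc, against highest values of 467 and 549 RPKM in paired cells. WT cells held it in 25.9% (18.2–34.8%) of cases with Gzmc and 10.3% (5.46–17.4%) without, PD-1-/- cells in 36.9% (26.6–48.1%) and 19.05% (11.3–29.1%), and the differences were 1.23 and 1.45. Tnfrsf9, the gene of the costimulatory receptor 4-1BB that appears on activated NK cells, differed by 0.92 and 1.49, short of the limit on the WT plate. Gp49a differed by 1.45 and 1.29, and its near-identical neighbor Lilrb4, the gene of an inhibitory receptor, by 2.19 and 0.99, and reads of this pair may have been split between them. In the list of 11 tested coinhibitory and costimulatory genes Lag3 was the single one past the limit. Tigit at -0.25 and -0.40 and Cd96 at -0.15 and -0.67, whose products compete with DNAM-1 for its ligands, were below 0 on both plates.

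Genes of tissue residence and type 1 innate lymphoid cells were above 0 on both plates in 10 of 12 cases, against 30.5% of all genes tested, and 2 passed the limit, Rgs1 and Ly6a. The study had reported Itga1, Tnfsf10, Amica1, Ly6a and Il21r of this list as higher in the same clusters of these sorted cells. The count is therefore a description and not independent support. The median over the list was 0.50. Rgs1, whose product dampens chemokine receptor signals, differed by 1.35 and 1.53 and was present in 58.6% and 60.7% of cells with Gzmc, against 41.4% and 44.05% of paired cells. Ly6a, the Sca-1 gene, differed by 1.62 and 1.41 and its shares with and without Gzmc were 25.9% (18.2–34.8%) and 8.62% (4.21–15.3%) on the WT plate, 33.3% (23.4–44.5%) and 22.6% (14.2–33.05%) on the PD-1-/- plate. Inpp4b, a phosphatase gene, lay at 1.05 and 0.84, Amica1, an adhesion gene, at 0.66 and 0.84, and Cd69, whose product holds lymphocytes in tissue by lowering S1PR1, at 0.90 and 0.17. Cxcr3, the receptor gene for interferon-induced chemokines, was below 0 on both plates, at -0.73 and -0.55.

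Itga1, the gene of the collagen receptor chain CD49a, differed by 0.13 on the WT plate and 1.44 on the PD-1-/- plate. In WT cells its share was 17.2% (10.9–25.4%) with Gzmc and 14.7% (8.78–22.4%) without, in PD-1-/- cells 42.9% (32.1–54.1%) and 19.05% (11.3–29.1%). Cxcr6, the gene of a chemokine receptor of resident lymphocytes, was found in too few cells to be among the genes tested. WT cells had it in 12.9% (7.42–20.4%) with Gzmc and 6.03% (2.46–12.04%) without, and PD-1-/- cells in 36.9% (26.6–48.1%) and 16.7% (9.42–26.4%). Pdcd1, the targeted gene, was present in 6.03% (2.46–12.04%) and 1.72% (0.209–6.09%) of WT cells with and without Gzmc, and in 23.8% (15.2–34.3%) and 10.7% (5.02–19.4%) of such PD-1-/- cells. The deletion in these mice takes a part of the gene, so that RPKM over the whole gene does not check the genotype labels. Whether these contrasts differ between the genotypes was not tested, as each rests on 1 pool.

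Of 16 tested genes of circulating mature NK cells, Ly6c2 was past the limit, and higher, at 1.10 and 1.11; 8 of the 16 were below 0 on both plates, against 21.5% of all genes tested. S1pr1, the gene of the receptor that leads lymphocytes out of tissue, lay at -0.93 and -0.87 and fewer cells held it with Gzmc than without, 9.48% (4.83–16.3%) and 24.1% (16.7–32.96%) on the WT plate, 11.9% (5.86–20.8%) and 22.6% (14.2–33.05%) on the PD-1-/- plate. S1pr5, which does the same in NK cells, lay at -0.61 and -1.01, with shares of 12.1% against 23.3% and of 16.7% against 28.6%. Klf2, the gene of a factor that drives S1pr1, lay at -0.27 and -1.64. Klrg1, a marker of maturation, stood at 0.32 and 0.22. The median over the list was -0.07.

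Transcription factor genes held none past the limit among 23 tested. Eomes, the factor that sets conventional NK cells apart from type 1 innate lymphoid cells, lay at -0.63 and -1.27 and was present in 62.1% and 66.4% of WT cells with and without Gzmc, and in 50% and 64.3% of such PD-1-/- cells. Tbx21, the T-bet gene, lay at 0.35 and 0.84, and Bhlhe40, a factor of activated and resident lymphocytes, at 0.52 and 1.26. Sh2d1a, the gene of the adaptor SAP of SLAM family receptors, was lower past the limit at -1.37 and -1.47, with shares of 56.03% (46.5–65.2%) with Gzmc and 70.7% (61.5–78.8%) without on the WT plate, and of 47.6% (36.6–58.8%) and 64.3% (53.1–74.4%) on the PD-1-/- plate. Txnip, whose product holds back glucose uptake, was lower by -1.55 and -1.13, and Pde2a, a phosphodiesterase gene, by -1.20 and -1.81.

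Cish, a target of interleukin-2 and interleukin-15 signaling that restrains it, was the gene past the limit among 18 of that pathway, at 1.38 and 1.14. Of WT cells, 34.5% (25.9–43.9%) held it with Gzmc and 14.7% (8.78–22.4%) without, and of PD-1-/- cells 32.1% (22.4–43.2%) and 15.5% (8.51–25.01%). Il2rb, the shared beta chain of both receptors, lay at -0.05 and 0.05, Socs1 at 0.28 and -0.38 and Myc at 0.23 and -0.40, and the list had a median of 0.01. S100a4, a calcium-binding protein gene of motile and memory lymphocytes, differed by 2.02 and 1.73 and Capg, an actin-capping protein gene, by 1.06 and 2.20. The remaining lists had no gene past the limit in either direction: 11 genes of the TGF-beta pathway (median 0.17), 20 of glycolysis and hypoxia (0.14), 25 of translation and growth (0.07), 12 of the interferon response (0.06), 15 immediate early and NR4A genes (0.18) and 13 of DNA replication and mitosis (-0.20). Aldoa (0.67 and 0.56) and Pgk1 (0.45 and 0.83) led glycolysis, and Nfkbia (0.90 and 0.74), the NF-kappa-B inhibitor, led the immediate early genes. Among replication genes, Mcm2 at 1.02 and -0.75 and Mcm4 at 0.69 and -1.25 lay on opposite sides of 0 on the plates. Mki67 or Top2a, transcripts of dividing cells, stood in 12.9% of WT cells with Gzmc and 16.4% of their paired cells, and in 19.05% and 20.2% on the PD-1-/- plate.

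The comparison was made again by the number of Gzmc reads. Cells from 10 reads, each paired anew with a cell at 0, had 38 genes higher past the limit on both plates, 0.593% of those tested, and 12 lower, 0.187%. The gap in detected genes within these new pairs was not measured. These cells have the most detected genes, and WT cells at 0 with many genes had already run short. Of the 22 genes past the limit in all cells with Gzmc, 17 were among these 50 genes, which is 77.3% of the first and 34% of the second list. The cells from 10 reads are part of all cells with Gzmc, so overlap of the lists is built in. Cells under 10 reads had 32 higher and 47 lower genes, 0.5% and 0.734%, in much smaller groups of 37 and 24 cells. The 50 genes were chosen by their differences in the cells from 10 reads. Of them, 18 had the same direction on both plates in the cells under 10 reads. Past the limit there as well were 2, Litaf (1.36 and 1.61) and F2r (1.001 and 1.08). How many of all 6403 genes keep their direction in this way was not counted, so the 18 are a description and not a result about these genes.

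Gzmb differed by 1.90 and 3.81 in cells from 10 reads and by -0.51 and -1.08 in cells under 10 reads. Its share from 10 reads was 93.7% (85.8–97.9%) on the WT and 98.3% (91.1–100%) on the PD-1-/- plate, and under 10 reads 70.3% (53.02–84.1%) and 75% (53.3–90.2%). The groups by read number also differed in detected genes. Gzmb was present in 84.8% and 80% of the cells paired with those from 10 reads. Its median level was 2533 RPKM in WT and 3693 RPKM in PD-1-/- cells from 10 reads, above those of 922 and 841 RPKM in the cells paired with them. Gzmb and Xcl1 were found together in 89.9% (81.02–95.5%) of the WT and 93.3% (83.8–98.2%) of the PD-1-/- cells from 10 reads, and in 62.03% (50.4–72.7%) and 50% (36.8–63.2%) of their paired cells.

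Xcl1 differed by 3.29 and 3.44 from 10 reads and by 1.57 and 0.27 under 10 reads. For Ccl5 the differences were -1.84 and -2.66 from 10 reads, and 0.54 and 0.50 under 10 reads. Its median level was 971 RPKM in WT and 1099 RPKM in PD-1-/- cells from 10 reads, below those of 1932 and 2654 RPKM in their paired cells. Sh2d1a lay at -1.80 and -2.05, and at -0.67 and 0.07 under 10 reads. In these means, cells with many Gzmc reads and those with few lay on opposite sides of their paired cells for Gzmb and Ccl5 on both plates. The values under 10 reads rest on 37 and 24 cells, among them wells of doubtful read number named above. For Gzmb the SD over all cells with Gzmc was 4.32 and 4.27. The signs under 10 reads are a description and do not part the cells into kinds.

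Genes that came past the limit when only cells from 10 reads were taken included Tnfrsf9, at 1.54 and 2.34 against -1.56 and -0.67 under 10 reads. Its share was 84.8% in WT and 83.3% in PD-1-/- cells from 10 reads, and 62.2% and 54.2% in those under 10, which had fewer detected genes. Klrb1f (1.36 and 1.47), Serpina3g, a protease inhibitor gene of activated lymphocytes (1.11 and 1.53), Hspa5, the chaperone gene of the endoplasmic reticulum (1.49 and 1.39), Traf2, a signaling adaptor of 4-1BB (1.17 and 1.43), Spp1, the osteopontin gene (1.08 and 1.39), and Inpp4b (1.19 and 1.12) were higher. Eomes (-1.14 and -1.26), S1pr1 (-1.04 and -1.29), Klra7 (-1.14 and -1.13) and Il16 (-1.08 and -1.10) were lower. Lag3 reached 1.63 and 1.89, with shares of 31.6% (21.6–43.1%) and 48.3% (35.2–61.6%) against 11.4% and 23.3% of paired cells. Cish, Hnrnpab, Pde2a, Rwdd1 and Slc25a11 were past the limit in all cells with Gzmc and not in those from 10 reads. Serpina3g, Hspa5, Traf2, Spp1, Il16 and F2r were chosen after their values were seen.

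**Figure D4:**
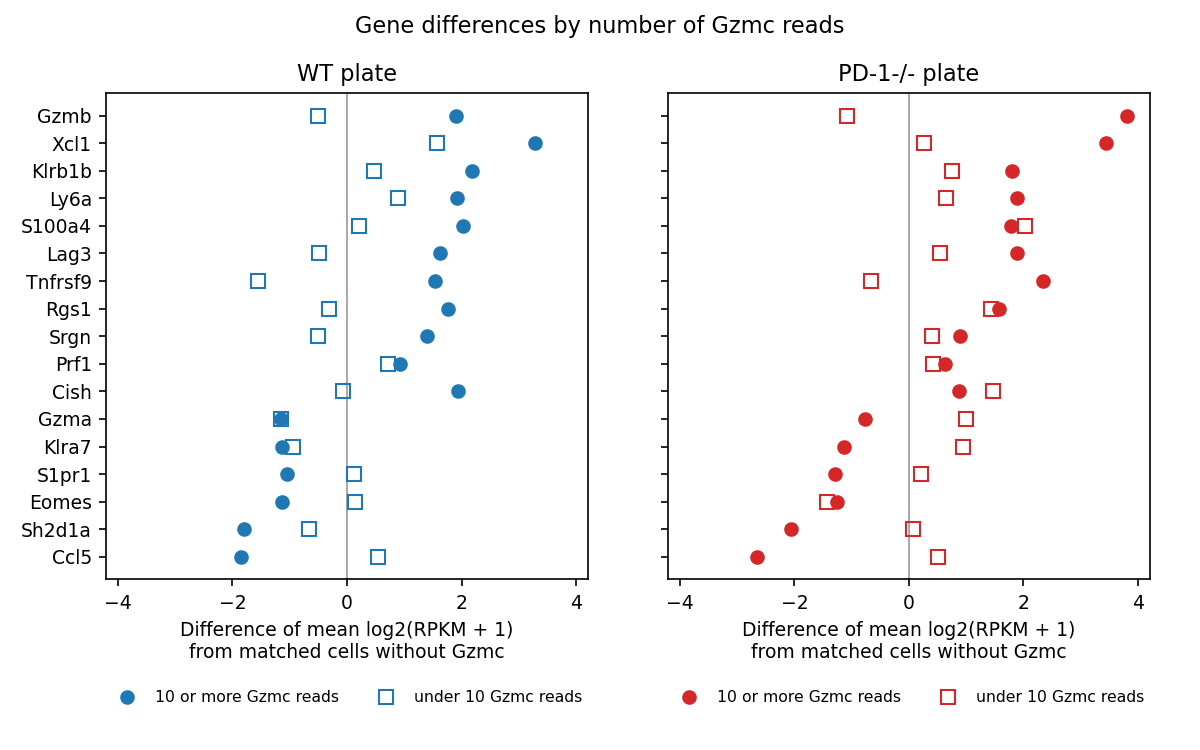
Differences of mean log2(RPKM + 1) from paired cells without Gzmc are on the x axis for the genes on the y axis, WT plate at the left and PD-1-/- plate at the right, with filled circles for cells of 10 or more Gzmc reads (79 and 60) and open squares for cells of fewer (37 and 24). Filled circles stand to the right of 0 for Gzmb at 1.90 and 3.81 and to the left for Ccl5 at -1.84 and -2.66, and the open squares of both genes lie on the other side of 0.

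Within the cells with Gzmc, the Gzmc level was ranked against each gene, as a description over cells that share a pool, a plate and a range of depth. Spearman's rho was highest, by the lower of the values of the plates, for Tnfrsf9 (0.41 in WT and 0.38 in the 84 PD-1-/- cells), Xcl1 (0.35 and 0.35), S100a4 (0.41 and 0.31), Lag3 (0.30 and 0.37) and Bcl2a1d, a survival gene of the Bcl2 family (0.28 and 0.29). Xcl1, S100a4 and Lag3 were also past the limit above. At the other end stood Ccl5 (-0.28 and -0.35), the nuclear RNA Malat1 (-0.25 and -0.26), the histone gene H2afz (-0.28 and -0.24) and Sidt1 (-0.28 and -0.24). All of these values are weak to moderate in sparse data, and detected genes also differed between cells with many and few Gzmc reads.

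Position on the plate went with the share of cells with Gzmc on the WT plate. In plate rows L to P, 48.2% (38.7–57.9%) of WT cells held Gzmc, against 25% (19.7–30.9%) in rows A to K. The same blocks of the PD-1-/- plate had 22.6% (15.3–31.3%) and 23.1% (18.04–28.8%). The blocks were set after the values were seen. Counting cells from 10 reads, the WT shares were 31.3% in rows L to P and 17.7% in rows A to K. The part of plate position in the share was not tested. With rows A to K alone the plates had 25% and 23.1% of cells with Gzmc, and whether the genotypes differ in this share was not tested.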

How the data were processed

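The authors sorted single NK cells into plates, made SMART-SEQ2 libraries and deposited RPKM for 24490 gene entries of 768 wells, with no further scaling. The submitters' processing notes list TopHat, Cufflinks, mm9 and mm10 without a role or order. The annotation and the treatment of shared reads are not given in the sources used here. Some symbols (279) had several entries, which were kept apart.

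Groups were taken from the genotype labels. Within a plate, cells with Gzmc were paired 1 to 1 with cells at 0 by the least summed gap in detected genes, and differences are of mean log2(RPKM + 1), with a pseudocount of 1. A gene passed the limit at a difference of at least 1 on both plates. No test was made, because a genotype is 1 pool. Shares carry exact binomial (Clopper-Pearson) 95% intervals, and the limit of a count of 0 is 3 cells of the total.

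Whole reads were recovered from RPKM steps for 9539 of 11700 genes found in at least 8 wells, of which 99.5% of the 667898 values under 60 reads were whole within 0.0003. The share is over genes that passed a criterion of 90% whole values. Recovered reads per kept cell ranged from 1155 to 447745 (median 281324) on the WT plate and from 1667 to 501030 (median 297292) on the PD-1-/- plate, and 31 and 15 cells had fewer than 100000, so that absence of a low transcript is uncertain in such cells. Python 3.11.15, numpy 2.4.6, pandas 2.3.3, scipy 1.17.1 and matplotlib 3.10.9 were used. The read recovery was tried on simulated reads, and the comparison on random splits of the cells at 0 with genes changed by a known factor. Random splits have no built-in gap in detected genes, so the pairing was not tested under gaps like those of the WT plate.

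The genes named are all granzymes, the 15 highest and 10 lowest genes with the same direction on both plates, ranked by the plate with the smaller difference, the genes of each list past the limit (up to 4, by the same rank, and where none passes the 2 ranked first), the 5 highest and 5 lowest by rho with the Gzmc level, cell type markers, and Cxcr6, Itga1, Ifng, Klrg1, S1pr5, Pdcd1, Xcl1, Ccl4, Nme1, Ldha, Eif3i and Mki67. Other list genes are given as examples chosen after their values were seen. The cells, the gene lists and the named genes were chosen with earlier results of these data known. One of the 6 lower genes is not reported here. In all, 16 planned and 3 added alternatives changed cells, pairing, depth, pseudocount, scaling, filter and limit. Doublets were not called in sorted wells, and the 12 wells under and 30 wells over the gene limits were left out.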

Additional observations from a re-analysis of the deposited data

Results flagged for a closer look

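Wells with over 3500 detected genes were left out of the comparisons, and most of them held Gzmc. This was so in 14 of 16 such WT wells, 87.5% (exact binomial 95% interval 61.7–98.4%), with a highest value of 64368 RPKM. In PD-1-/- wells it was 9 of 14, 64.3% (35.1–87.2%), up to 9852 RPKM. None of the 8 WT and 4 PD-1-/- wells under 1000 detected genes held Gzmc, counts of 0 that allow shares of up to 37.5% and 75%. The number of cells in a well was not tested.

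Of the 6403 genes, 3 (0.0469%) differed by at least 1 on both plates in opposite directions. Ergic3, which codes for a protein of transport between endoplasmic reticulum and Golgi, lay at -1.78 in WT and 1.08 in PD-1-/- cells with Gzmc. Mrpl33, a mitochondrial ribosomal protein gene, lay at 1.12 and -1.01. Syngr2, a gene of a vesicle membrane protein, lay at 1.41 and -1.04. The difference between the plates was not tested for any of them.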

How the results depend on the processing

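None of the 16 higher and 5 lower genes named past the limit changed the sign of its mean over the plates under the alternatives, and the cause of the changes below was not tested. The share of cells with Gzmc moved to 23.3% in WT and 16.9% in PD-1-/- cells when a cell needed 10 RPKM and to 21.9% and 16.4% from 10 recovered reads. For WT alone it moved to 25.8% in the upper plate (rows A to H), 38.5% in the lower (rows I to P), 25% in rows A to K and 26.7% in cells thinned to 100000 reads. The 16 higher and 6 lower genes are 0.25% and 0.0937% of those tested. These shares became 0.453% and 0.203% (29 and 13 genes) at 10 RPKM, 0.593% and 0.187% (38 and 12) from 10 reads, 0.159% and 0.0477% (10 and 3) without rows A and B, 0.88% and 0.359% (54 and 22) in the upper plate, 0.399% and 0.207% (25 and 13) in the lower, 0.875% and 0.0469% (56 and 3) without pairing, 0.984% and 0.0312% (63 and 2) when paired on recovered reads, 0.0469% and 0.0156% (3 and 1) with a pseudocount of 10 RPKM, and 2.51% and 1.17% at a limit of 0.5. Higher genes alone moved to 0.43% (27) without cells with CD3 reads and to 0.156% (10) in pairs within 100 detected genes, of which each plate had 78. Rows A to K had 0.405% and 0.243% (25 and 15). Other counts stayed within 1.5 times. Paired on recovered reads, Ly6c2, Sh2d1a, Rras2 and Pde2a changed sign on 1 plate, and Rwdd1 did so when thinned, where Gp49a, Capg, Slc35c2 and Pde2a gave no value because their reads were not recovered. The settings of 10 reads, of 100 genes and of rows A to K were chosen after seeing the data.

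No paired analysis was possible because no result comes from a test between replicates, and the numbers in the sample titles only name wells. Each plate is 1 pool of 3 mice, so no value has a replicate error. Pairs on the WT plate differed by 163.6 detected genes on average, and depth limits what a value of 0 says.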

Other observations

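Granzyme genes outside the Gzmc locus, beside Gzma, were rare. Gzmk, a granzyme gene of memory-like lymphocytes, was present in 1.72% of WT cells with Gzmc and 8.62% of their paired cells, and in 4.76% and 2.38% on the PD-1-/- plate. Gzmm was present in 5.17% and 8.62%, and in 3.57% and 1.19%. Serpinb9 and Serpinb6b, genes of inhibitors that guard killer cells against their own granzymes, differed by 0.06 and 0.05 on the WT plate and by 1.02 and 1.44 on the PD-1-/- plate. Whether these contrasts differ between the plates was not tested.

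Cells that held Nme1, Ldha and Eif3i together, genes of nucleotide synthesis, glycolysis and translation, made up 73.4% (62.3–82.7%) of WT and 70% (56.8–81.2%) of PD-1-/- cells from 10 Gzmc reads. Their paired cells had 59.5% (47.9–70.4%) and 58.3% (44.9–70.9%). Taking every cell with Gzmc, the trio stood in 65.5% on the WT plate (paired 58.6%) and in 61.9% on the other (paired 53.6%). Under 10 reads the shares were 48.6% and 41.7%, in cells with fewer detected genes. For all cells with Gzmc, Nme1 differed by 0.58 and -0.19, Eif3i by -0.22 and 1.03 and Ldha by 0.44 and 0.24. Nme1 and Eif3i thus did not share a direction between the plates.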
